A study of Mus musculus with 7 samples.

Results

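Genes of heme synthesis, of iron handling and of iron-sulfur cluster assembly were followed in G1E, a mouse erythroid cell line without functional GATA1 that grows as immature precursors. A list of 38 gene symbols set the group, and each gene was read from a probeset annotated with exactly 1 symbol. Where a gene had several, the brightest by its mean on the 7 arrays was used. In this way 35 of the 38 genes were measured, among 22180 genes on the array. Alas2, Ftl1 and Nfs1 had no probeset with a single symbol and are not analysed here. Control cells, labelled Lockd WT, were measured on 3 arrays, and cells from which Lockd had been removed with CRISPR/Cas9 were measured on 4. Lockd encodes a long non-coding RNA and neighbours Cdkn1b, the gene of the cell cycle inhibitor p27. The design text calls the samples clones of G1E, so the controls share its lack of GATA1. The series title names the separation of a long non-coding RNA from a cis element as its subject. Removing DNA takes away both, and effects of the RNA and of the DNA element cannot be told apart with these groups.

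Heme is made in steps that begin and end in the mitochondrion. ALAS joins glycine to succinyl-CoA, cytosolic enzymes, ALAD, UROS and UROD among them, build and trim the ring, and CPOX, PPOX and FECH finish it and insert iron. Erythroid precursors bring in that iron through the transferrin receptor, pass it to the mitochondrion through mitoferrin and keep the rest in ferritin. The iron regulatory proteins encoded by Aco1 and Ireb2 bind stem-loops in messages such as those of ferritin and the transferrin receptor, and iron-sulfur clusters set whether the Aco1 product binds RNA or acts as an aconitase.

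The RNA groups could be told apart at the targeted locus. Lockd averaged 7.91 ± 0.12 (SD, n = 3) on control and 4.89 ± 0.48 (SD, n = 4) on deletion arrays, as log2 RMA values. Its difference, deletion minus control, was -3.02 (SE 0.23) with an adjusted p of 0.0162 in limma over 23521 probesets, and that of Cdkn1b was -1.14 (SE 0.10). These were the only probesets past an adjusted p of 0.05, which is 0.0085% of those tested. Neither was past it once any single control array, or deletion replicate 1 or 4, was left out, and without deletion replicate 3 Cdkn1b was not. The arrays correlated at 0.993 to 0.996, and control replicate 2 lay apart on the first principal component. All 14 measured erythroid markers, such as Klf1, Gfi1b and Car2, had probesets above the median level of all genes, against 3 of 12 macrophage markers. The log2 sum of the erythroid markers was 14.87 to 14.92 on control and 14.79 to 14.93 on deletion arrays. Of the 14 markers 12, or 85.7%, were lower, beside 47.8% of all probesets, none past the adjusted threshold. At an unadjusted p under 0.05 were 2 of the 14, or 14.3%, both lower, beside 2.37% of all probesets. They were the membrane skeleton gene Add2 at -0.44 (SE 0.12, groups apart) and the blood group gene Kel at -0.32 (SE 0.12). Markers of other lists at that p were Gp9, lower at -0.33, and Hoxa9 and Mpo, higher at 0.36 and 0.24, all with groups apart. The sums of the other lists were 13.70 to 13.78 on control and 13.68 to 13.77 on deletion arrays for progenitor and 9.32 to 9.48 and 9.33 to 9.42 for macrophage markers. The megakaryocyte sum was lower on every deletion array, at 8.877 to 8.995 against 8.999 to 9.240 on control arrays. Yet of the 7 measured megakaryocyte markers 4 were higher and 3 lower, with a median of 0.07. Gp9, the brightest of the 7, was among the lower. The neutrophil and monocyte sum was 8.32 to 8.49 on control and 8.45 to 8.56 on deletion arrays. The mast cell sum varied most, from 10.12 to 12.33 among control and from 10.61 to 11.92 among deletion arrays. The part of these markers in the results below was not tested.

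The promoters of 3 members are shown first: those of Ppox and Tfrc, which were lower on every deletion array without passing the test, and that of Cpox, the enzyme before Ppox. Each is the run of 250 bases before the RefSeq start in the build GRCm38.p6, on the gene's strand. The Cpox run is chr16:58669958-58670207 on the plus strand, that of Ppox is chr1:171281187-171281436 on the minus strand, and that of Tfrc is chr16:32608646-32608895 on the plus strand, before the first of its 2 listed starts. Capitals mark AGATAA or TGATAA, forms of the core that GATA factors bind, and CACCC, the core that Kruppel-like factors bind, each on either strand. Forms that end in G, AGATAG and TGATAG, were not searched, and GATA core below means only the forms searched.
Cpox: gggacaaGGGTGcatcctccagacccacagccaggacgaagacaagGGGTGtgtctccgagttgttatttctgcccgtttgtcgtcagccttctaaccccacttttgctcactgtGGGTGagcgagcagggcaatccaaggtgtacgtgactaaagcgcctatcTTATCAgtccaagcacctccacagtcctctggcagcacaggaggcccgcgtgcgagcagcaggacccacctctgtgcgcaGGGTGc
Ppox: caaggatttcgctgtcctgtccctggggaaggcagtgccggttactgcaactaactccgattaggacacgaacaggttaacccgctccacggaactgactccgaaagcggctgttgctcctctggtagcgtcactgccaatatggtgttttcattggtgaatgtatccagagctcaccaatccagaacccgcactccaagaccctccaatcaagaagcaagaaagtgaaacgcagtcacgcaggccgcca
Tfrc: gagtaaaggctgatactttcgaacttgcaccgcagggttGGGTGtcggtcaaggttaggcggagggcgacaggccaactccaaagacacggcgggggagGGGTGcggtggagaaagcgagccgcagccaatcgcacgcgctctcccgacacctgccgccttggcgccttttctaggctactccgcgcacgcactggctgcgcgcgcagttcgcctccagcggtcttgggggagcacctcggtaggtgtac

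The Cpox run held 1 GATA core, TGATAA on the opposite strand starting 86 bases before the start, and 4 CACCC cores. The Tfrc run shown held 2 CACCC cores and no GATA core, and the Ppox run held neither set of letters. The run before the other listed Tfrc start, not shown, held 3 CACCC cores and no GATA core. RefSeq promoter entries were found for 29 of the 38 genes, with 43 runs in all. A GATA core lay in 6 of these runs, or 14.0%, against 16.6% of all 32851 runs, and the genes were Alas2, Uros, Cpox, Tfr2, Steap3 and Isca2. The CACCC core lay in 65.1% of the runs of these genes and in 52.0% of all runs. The motifs do not overlap each other. A match describes the letters and is not a measured binding site.

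None of the 35 genes passed the test. The smallest limma adjusted p among them, over all 23521 probesets, was 0.908 for Ppox. Of the 35 genes 19, or 54.3%, were lower in deletion cells, as were 47.8% of all probesets. Differences ran from -0.41 for Ppox to 0.22 for Hfe, with a median of -0.02 beside 0.01 over all genes, and 32 of the 35 were smaller than 0.2 in size. The 95% intervals of all 35 genes lay between -0.60 and 0.40, so that none reached a 2-fold difference in either direction. The probesets of Hfe, Slc39a14 and Flvcr2 lay below the median level of all genes, where background can make a difference look smaller than it is. At an unadjusted p under 0.05 there were 4 genes, or 11.4%, where 4.64% of all probesets were. Of these Ppox, Tfrc and Aco1 were lower in deletion cells and Hfe was higher, beside 2.37% lower and 2.27% higher among all probesets. For 6 genes, or 17.1%, all deletion arrays lay on 1 side of all control arrays, as for 5.15% of all probesets. Those 6 were Ppox, Tfrc and Ncoa4 on the lower side, beside 2.5% of all probesets, and Hfe, Slc11a2 and Slc48a1 on the higher side, beside 2.65%. With each array centred on its median the 3 higher genes overlapped and 3 genes stayed apart, beside 4.35% of all probesets. With the arrays quantile normalised again, 2 stayed apart, Ppox and Tfrc, beside 5.35%.

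**Figure D1:**
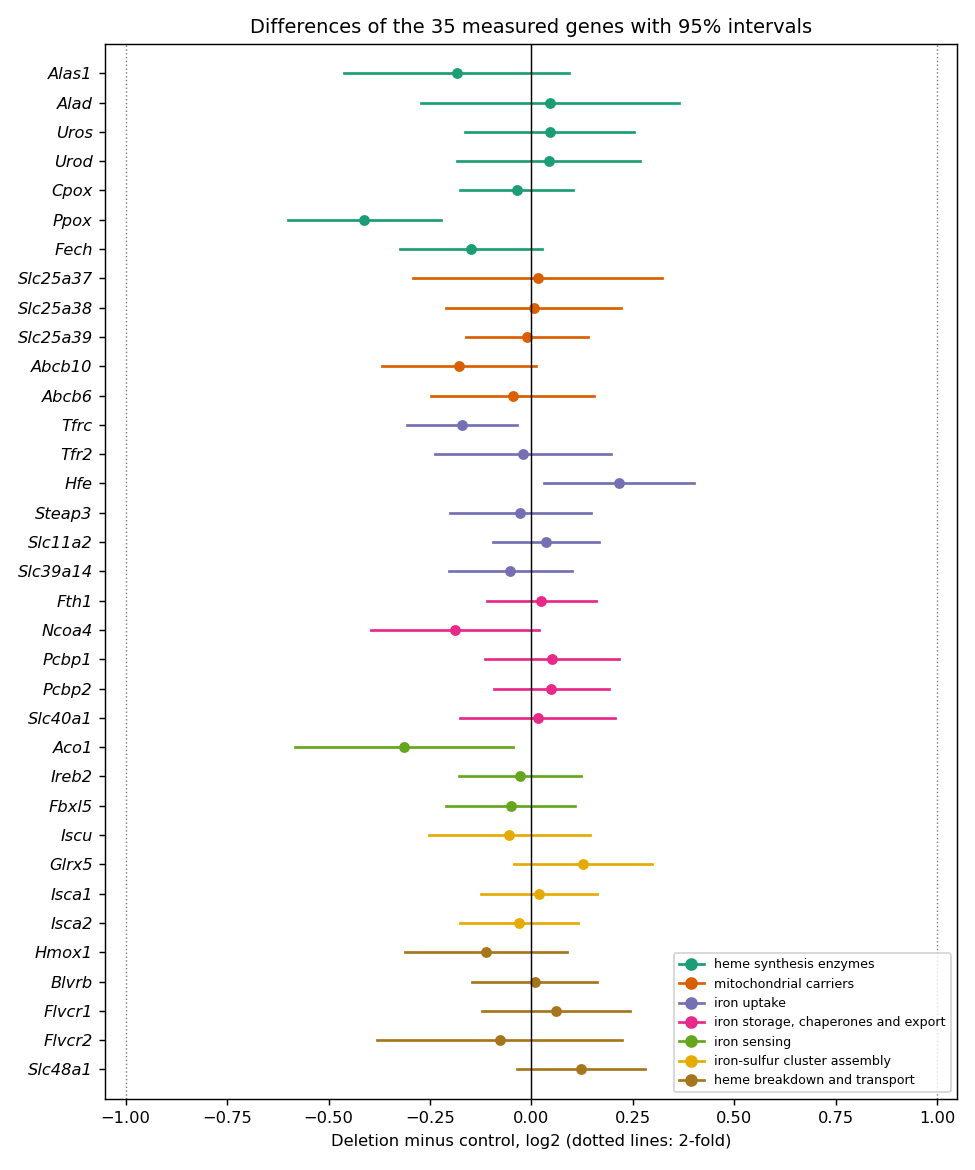
Difference between deletion and control arrays in log2 units for the 35 measured genes, coloured by role, with points for the estimates and bars for the 95% intervals of the limma fit. The dotted lines mark 2-fold, which no bar reaches, and Ppox at -0.41 and Aco1 at -0.31 lie farthest to the left.

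The pathway opens with Alas1, the housekeeping form of the first enzyme. It read 9.05, 8.56 and 8.72 on control replicates 1 to 3 and 8.50, 8.70, 8.48 and 8.69 on deletion replicates 1 to 4. The groups overlapped, and the difference of -0.18 (SE 0.12) rested on the high value of control replicate 1, being -0.05 without it and -0.29 without control replicate 2. Alad, the enzyme that joins a pair of aminolevulinate molecules, read 10.76, 11.23 and 10.88 on control and 11.06, 10.81, 11.25 and 10.89 on deletion arrays. It had the widest spread within groups of all 35 genes, at an SD of 0.217, and its difference was 0.05 (SE 0.14, 95% interval -0.27 to 0.36). Control replicate 2 and deletion replicate 3 were its high arrays.

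Uros and Urod, the enzymes that close and then decarboxylate the ring, differed little in the mean but not in the same way between arrays. Uros read 7.87, 7.90 and 7.82 on control and 7.84, 7.82, 8.14 and 7.84 on deletion arrays. Only deletion replicate 3 lay away from the other 6 arrays, and the difference went from 0.05 (SE 0.09) to -0.03 without it. Urod read 9.60, 9.73 and 10.02 on control arrays but 9.82, 9.81, 9.83 and 9.85 on deletion arrays. The control values thus enclosed all deletion values, with an SD of 0.217 against 0.0152, and the difference was 0.04 (SE 0.10).

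Cpox, the mitochondrial coproporphyrinogen oxidase, was nearly level. It read 12.78, 12.81 and 12.76 on control and 12.73, 12.71, 12.81 and 12.75 on deletion arrays, a difference of -0.04 (SE 0.06, 95% interval -0.18 to 0.10). The next enzyme stood out from it. Ppox, which oxidises protoporphyrinogen, read 10.21, 10.21 and 10.05 on control and 9.85, 9.65, 9.83 and 9.66 on deletion arrays. All 4 deletion arrays lay below the lowest control array. The means were 10.16 ± 0.09 (SD, n = 3) and 9.75 ± 0.11 (SD, n = 4), which differ by -0.41 (SE 0.08, 95% interval -0.60 to -0.22). On the linear scale that is -24.8% with bounds of -34.0% and -14.3%. The unadjusted limma p was 0.000927 and the adjusted p 0.908, so Ppox did not pass. The exact two-sided permutation test over the 35 splits of the arrays gave p = 0.0286, the smallest that 3 against 4 arrays allow. Leaving out each array in turn kept the difference between -0.46 and -0.38, and adjusted p ran from 0.471 to 1.00 over those fits in limma.

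Fech, the ferrochelatase that inserts iron, read 11.71, 11.66 and 11.80 on control and 11.63, 11.46, 11.68 and 11.54 on deletion arrays. Deletion replicate 3 lay just above the lowest control array, and the difference was -0.15 (SE 0.08, 95% interval -0.32 to 0.03). Of the 7 measured enzymes 4 were lower and 3 higher, with a median of -0.04. The pathway therefore had no common direction, and 1 enzyme, Ppox, had an interval that left out 0.

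**Figure D2:**
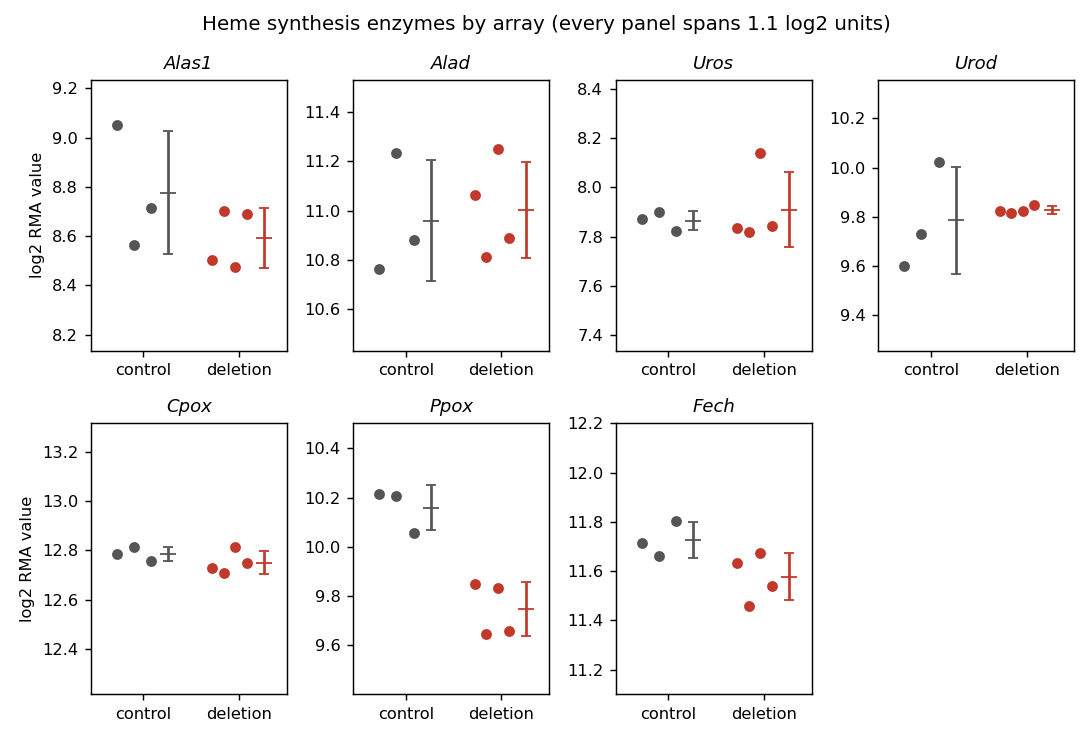
Log2 RMA values of the 7 measured heme synthesis enzymes on each control array (grey, 3) and deletion array (red, 4), in pathway order, with the group mean and SD beside the points. Only in the Ppox panel do all deletion points, at 9.65 to 9.85, lie below all control points, at 10.05 to 10.21.

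Of the 5 mitochondrial carriers that serve the pathway, 3 were lower and 2 higher, none past the test. Slc25a37, the mitoferrin that imports iron in erythroid cells, differed by 0.02 (SE 0.13), with control arrays at 9.38 to 9.91 and deletion arrays at 9.50 to 9.87. Slc25a38, the carrier that brings in glycine for ALAS, differed by 0.01 (SE 0.09), and Slc25a39, the mitochondrial glutathione carrier, by -0.01 (SE 0.07). Abcb6, a porphyrin transporter, differed by -0.05 (SE 0.09). Abcb10, a transporter of the inner membrane that binds mitoferrin, had the largest difference of these 5 at -0.18 (SE 0.08, 95% interval -0.37 to 0.01). Its range was 10.54 to 10.69 on control and 10.32 to 10.60 on deletion arrays, which overlap through deletion replicate 3.

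Of the iron uptake genes, Tfrc was lower and Hfe higher on every deletion array. Tfrc, the transferrin receptor of erythroid precursors, read 11.95, 11.90 and 11.89 on control and 11.73, 11.70, 11.77 and 11.77 on deletion arrays. Every deletion array lay below every control array, and the spread within groups was small, with SDs of 0.0283 and 0.0348. The difference was -0.17 (SE 0.06, 95% interval -0.31 to -0.03), or -11.2%. The limma p was 0.0199 before and 0.999 after Benjamini-Hochberg adjustment. The exact two-sided permutation p was 0.0286. Tfr2, the second transferrin receptor, which partners the erythropoietin receptor, differed by only -0.02 (SE 0.09). Hfe, which binds the transferrin receptor, read 4.79, 4.84 and 4.62 on control and 5.09, 4.92, 4.96 and 4.90 on deletion arrays. Its groups did not overlap as deposited, and the difference was 0.22 (SE 0.08, unadjusted limma p 0.0272, adjusted p 0.999, exact two-sided permutation p 0.0286). Hfe was the dimmest probeset of the group, and with each array centred its difference was 0.19 (SE 0.10) and the groups overlapped.

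Slc11a2, the DMT1 transporter that moves iron out of endosomes, was the steadiest gene of all. It read 10.27, 10.28 and 10.31 on control and 10.32, 10.33, 10.32 and 10.33 on deletion arrays. The groups did not overlap, yet the difference was only 0.04 (SE 0.06, unadjusted limma p 0.545). The limma standard error also draws on the spread of all probesets, and the SD of Slc11a2 within groups was 0.0123. The exact two-sided permutation p was 0.0286, as for Ppox, Tfrc and Hfe. With each array centred the groups overlapped. Steap3, the endosomal ferrireductase, differed by -0.03 (SE 0.08), and Slc39a14, an importer of iron not bound to transferrin, by -0.05 (SE 0.07). Of the 6 uptake genes 4 were lower and 2 higher.

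Of the 5 measured storage, chaperone and export genes, 4 were higher by 0.05 or less and Ncoa4 was lower, none past the test. Fth1, the ferritin heavy chain, read 13.47, 13.47 and 13.54 on control and 13.54, 13.51, 13.50 and 13.53 on deletion arrays. The groups overlapped and the difference was 0.02 (SE 0.06, 95% interval -0.11 to 0.16). Ncoa4, the receptor that delivers ferritin to the lysosome, read 9.26, 9.18 and 9.25 on control and 9.09, 9.09, 9.17 and 8.82 on deletion arrays. All 4 deletion arrays were below the controls, deletion replicate 3 by little and deletion replicate 4 by most. The difference was -0.19 (SE 0.09, 95% interval -0.40 to 0.02), and -0.12 without deletion replicate 4. The iron chaperone genes Pcbp1 and Pcbp2 differed by 0.05 each (SE 0.07 and 0.06), and Slc40a1, the exporter ferroportin, by 0.02 (SE 0.08).

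The mean differences of the 3 iron sensors were below 0, and for Ireb2 the sign turned without control replicate 1, to 0.01. Aco1, the bifunctional iron regulatory protein and aconitase gene, read 10.17, 10.68 and 10.53 on control and 10.04, 10.19, 10.21 and 10.15 on deletion arrays. Control replicate 1 lay among the deletion arrays, so the groups overlapped, and the other two control arrays lay above all of them. The difference was -0.31 (SE 0.12, 95% interval -0.58 to -0.04), or -19.5%. Limma gave p = 0.0273 unadjusted and 0.999 adjusted, and the exact two-sided permutation p was 0.0857. It was -0.20 without control replicate 2 and -0.46 without control replicate 1. Ireb2, the second iron regulatory protein, read 10.20, 10.15 and 10.04 on control and 10.08, 10.14, 10.13 and 10.06 on deletion arrays. Its groups overlapped almost fully, with a difference of -0.03 (SE 0.07, 95% interval -0.18 to 0.12). Fbxl5, which marks IREB2 protein for degradation when iron is plentiful, differed by -0.05 (SE 0.07).

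Of the 4 measured genes of iron-sulfur cluster assembly, 2 were lower and 2 higher, none past the test. Iscu, the scaffold, differed by -0.05 (SE 0.09), and Isca1 and Isca2, which act late for larger clusters, by 0.02 (SE 0.06) and -0.03 (SE 0.06). Glrx5, the glutaredoxin that passes clusters on, had the largest difference of these 4 genes at 0.13 (SE 0.07, 95% interval -0.04 to 0.30). Control arrays lay at 12.18 to 12.27 and deletion arrays at 12.24 to 12.47, so that only deletion replicate 1 overlapped with the controls. A dimmer probeset of Glrx5 gave 0.17 (SE 0.09), the same direction.

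Heme breakdown and transport came last in the order. Hmox1, the inducible heme oxygenase, read 9.86, 9.72 and 9.53 on control and 9.54, 9.58, 9.57 and 9.68 on deletion arrays. The deletion arrays lay inside the wider control range, and the difference of -0.11 (SE 0.09) was -0.03 without control replicate 1 and -0.20 without control replicate 3. Slc48a1, the transporter HRG1 that moves heme out of lysosomes, read 12.25, 12.23 and 12.28 on control and 12.33, 12.48, 12.29 and 12.40 on deletion arrays. All deletion arrays were above the controls, replicate 3 by the least, and the difference was 0.12 (SE 0.07, 95% interval -0.03 to 0.28). With each array centred it was 0.10 (SE 0.08) and the groups overlapped. Blvrb, a biliverdin reductase, differed by 0.01 (SE 0.07), the heme exporter gene Flvcr1 by 0.06 (SE 0.08) and its relative Flvcr2 by -0.08 (SE 0.13).

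**Figure D3:**
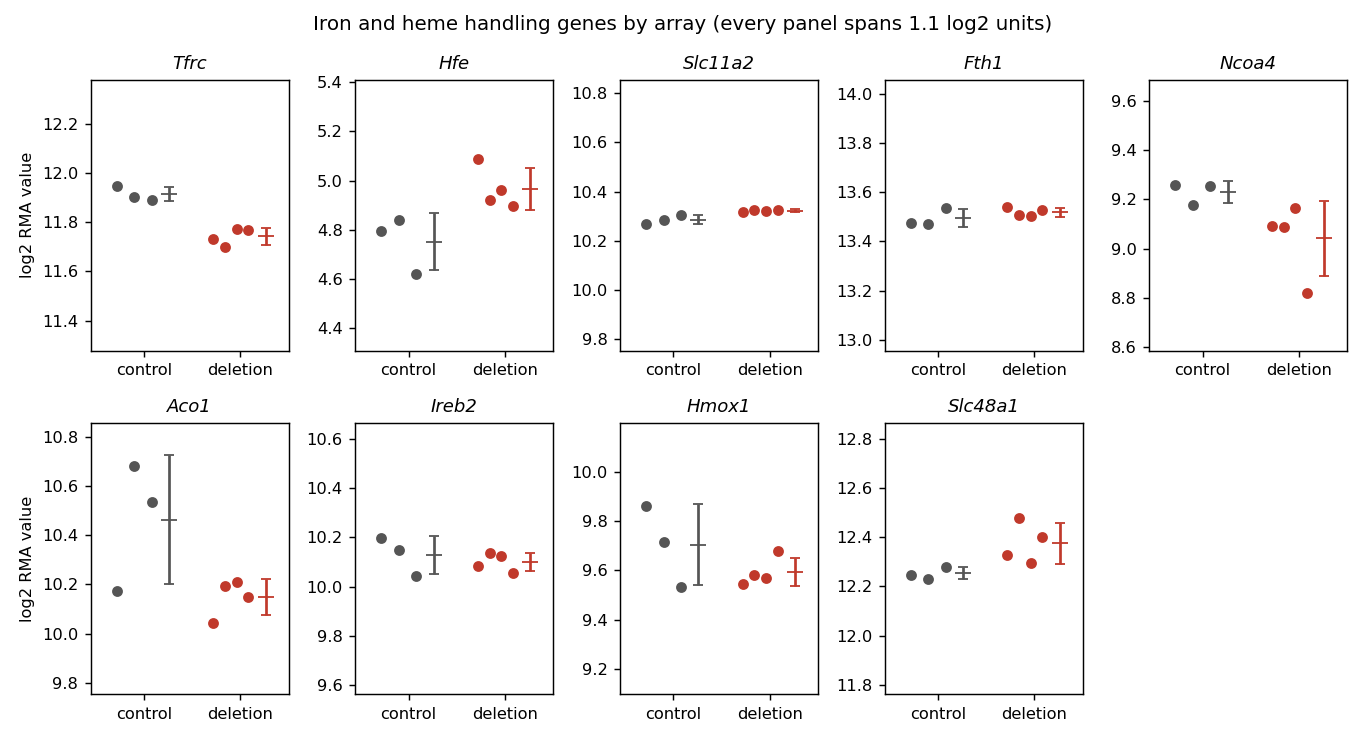
Log2 RMA values of 9 iron and heme handling genes on each control array (grey, 3) and deletion array (red, 4), with the group mean and SD beside the points. Tfrc is lower on all deletion arrays with little spread, while for Aco1 the control point of replicate 1, at 10.17, lies among the deletion points.

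Other genes of the same pathways, none of them on the list above, were read from the same fit. Of 72 such genes 64 were measured, 31 lower and 33 higher, with a median of 0.00. In limma 0 of the 64 passed over all probesets and 0 had an unadjusted p under 0.05, beside 4.64% of all probesets. The groups did not overlap for 5 of them, or 7.81%, Clpp, Exoc6, Nfu1 and Bola2 on the higher and Abcg2 on the lower side, beside 5.15% of all probesets. The smallest p among them was that of Erfe, the erythroid hormone that restrains hepcidin, at -0.35 (SE 0.18). It read 7.24, 7.88 and 7.76 on control and 7.22, 7.09, 7.62 and 7.16 on deletion arrays, which overlap. Of 21 further iron-sulfur genes, such as the chaperone genes Hscb and Hspa9 at 0.00 and 0.06, 14 were higher and 7 lower. Among 19 further heme genes, Bach1, the heme-sensing repressor of Hmox1, differed by -0.12 (SE 0.08). Eif2ak1, the heme-regulated kinase that acts on translation, differed by -0.02 (SE 0.08).

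Values of the genes also varied between arrays of the same group. The median SD within groups was 0.0961 over the 35 genes and 0.126 over all genes. Alad at 0.217, Slc25a37 at 0.207, Flvcr2 at 0.203, Alas1 at 0.183 and Aco1 at 0.175 varied most, and Slc11a2 at 0.0123 and Fth1 at 0.0267 least. For 10 of the 35 genes, or 28.6%, control replicate 2 was the highest control array and deletion replicate 3 the highest deletion array, where this held for 11.7% of all genes. These 10 were Alad, Uros, Cpox, Slc25a37, Abcb10, Abcb6, Pcbp1, Aco1, Iscu and Blvrb, a pattern noticed in these values and not tested. Of the 14 erythroid markers 5, or 35.7%, had the same 2 highest arrays, Epor, Slc4a1, Tal1, Rhd and Trim10, and 9 did not. Their part in the pattern was not tested. For Ppox the highest arrays were control replicate 1 and deletion replicate 1. For Tfrc they were control replicate 1 and deletion replicate 3, so Tfrc shared the highest deletion array of the pattern. Both genes stayed lower without deletion replicate 3, and their relation to the pattern was not tested.

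**Figure D4:**
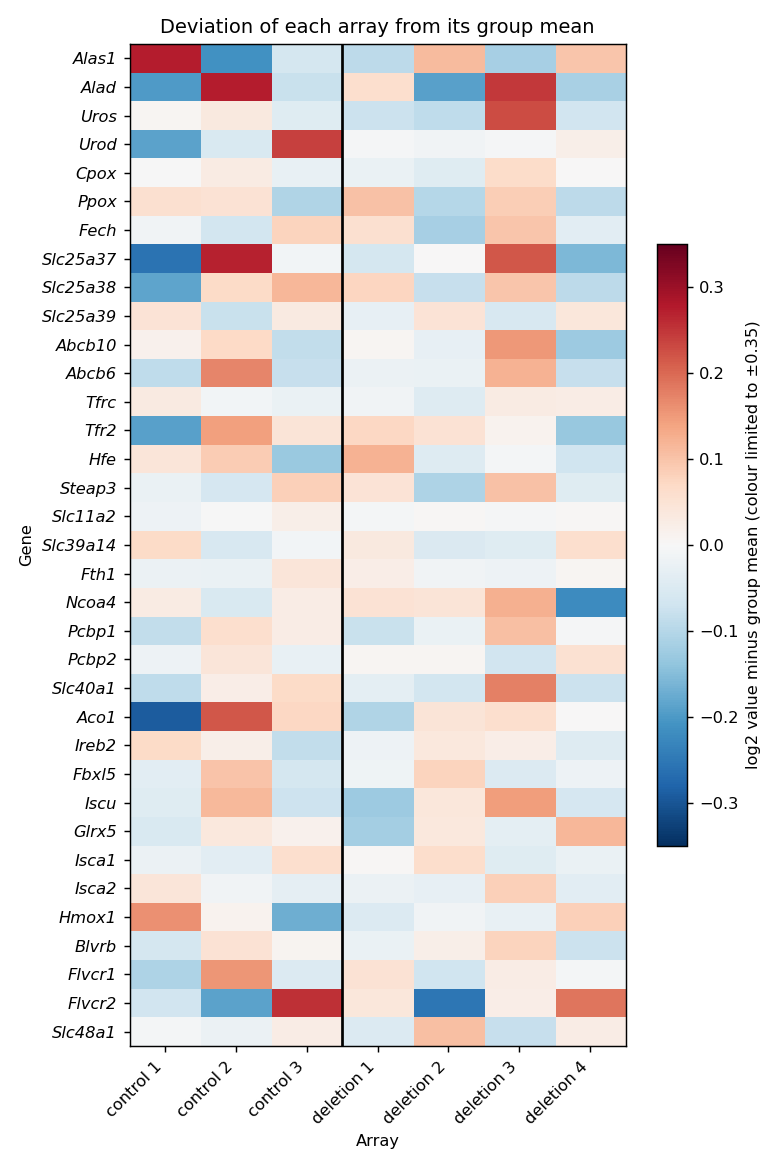
Deviation of each array from its own group mean, in log2 units, for the 35 genes (rows) on 3 control and 4 deletion arrays (columns, separated by the black line). Control 2 and deletion 3 share high values for Alad, Slc25a37, Abcb10 and Abcb6, and the rows of Slc11a2 and Fth1 are nearly blank.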

How the data were processed

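Total RNA was measured on 7 Mouse Gene 2.0 ST arrays. The authors deposited log2 values made with RMA in the Expression Console software of Affymetrix (source: per the labels' list of processing tools). Its version and the genome build are not stated in those sources. RMA brings the probe values of all arrays to the same distribution before it summarises them, and gives no detection call. The deposited probeset values need not share a distribution, and the medians of the arrays ran from 5.42 to 5.46. The table held 41345 probesets, of which 23521 had exactly 1 symbol in the platform annotation and were tested. Differences are deletion minus control, tested in R 4.3.3 with limma 3.58.1 (lmFit and eBayes on all 7 arrays, two-sided, Benjamini-Hochberg adjustment over the 23521, threshold 0.05, no filter, no covariate). Intervals are at 95% confidence. The exact permutation test counted the 35 splits by the size of the mean difference. The fit was tested on simulated data. The members, the lists and the tests were chosen with earlier results of these data known. All members are named; those given array by array were the heme enzymes, Tfrc, Aco1, Ireb2, Fth1, Hmox1 and members with an unadjusted p under 0.05, groups that did not overlap or a difference of 0.3 or more. Markers and further examples were picked with their values in view. The alternatives were other scalings, a level filter, all probesets, mean probesets, a variance trend, array weights, a replicate block and leaving out each array. Groups and replicate numbers came from the titles. The design text calls the samples clones, and the labels do not say whether replicates were separate cultures. The p-values thus cover only the spread among these samples, which may be one between clones or a technical one. The part of differences between clones in the group differences, those of Ppox and Tfrc included, was not tested. The number of arrays limits the precision. Levels of different probesets are not comparable as amounts.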

Additional observations from a re-analysis of the deposited data

Results flagged for a closer look

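Deletion replicate 3 stood apart from the other 3 deletion arrays for 4 of the 37 genes checked, the 35 measured members with Lockd and Cdkn1b. The check compared the gap to the nearest array with the range of the group. Chance sets apart about 1 in 20 groups. Uros read 8.14 there, with the next highest deletion array at 7.84. Slc40a1 read 10.42, with the next at 10.21, and Isca2 read 9.90, with the next at 9.79. Lockd was lowest there, at 4.17, with the next lowest at 5.09. Without deletion replicate 3 the differences were -0.03 for Uros, -0.04 for Slc40a1, -0.06 for Isca2 and -2.78 for Lockd.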

How the results depend on the processing

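No member passed an adjusted p of 0.05 under any of the alternatives run, and the smallest member adjusted p was 0.162, for Ppox with a variance trend and robust estimation in limma. The count at an unadjusted p under 0.05 was 8 with that trend, or 22.9%, beside 4.36% of all genes in that fit, and the differences themselves do not change with it. Leaving out each array gave 2 to 6, beside 3.63% to 7.14% of all genes, and 0 to 3 for the other pathway genes. Members whose groups did not overlap numbered 3 with each array centred, beside 4.35% of all probesets, and 2 with quantile normalisation repeated, beside 5.35%. With an array left out they numbered 6 to 11. Smaller groups lie apart more often by chance, and the share of all probesets was not computed for those fits. These counts therefore cannot be set beside the 5.15% found with all 7 arrays. Ppox and Tfrc were lower in every alternative. Centring changed the sign of 5 members, none over 0.02 in size, and moved the median of all genes by -0.02. Leaving out an array changed the sign of 1 to 8 members, none over 0.08 in size with all arrays. Median differences of the members ran from -0.04 to 0.01 with an array left out. Lockd and Cdkn1b kept their direction. With all probesets of the array tested they were at -3.02 and -1.14 but above the threshold, at adjusted p of 0.0991 and 0.141 in limma. With an array left out they ran from -3.10 to -2.78 and from -1.21 to -1.08, and limma adjusted p reached 0.106 and 0.189. Lockd then passed only without deletion replicate 2 or 3, and Cdkn1b only without deletion replicate 2. Nothing in the labels says that replicate numbers pair the samples, and the descriptions number the deletion samples otherwise than the titles. By the titles, deviations of same-numbered arrays correlated at 0.02, 0.06 and -0.10. With the replicate block, which leaves out deletion replicate 4, Lockd was at -3.10 and Cdkn1b at -1.14, at adjusted p of 0.109 and 0.680, and 3 members had an unadjusted p under 0.05, or 8.57%, beside 3.73% of all genes. The cause of these changes was not tested. The level filter left out Hfe, Slc39a14 and Flvcr2.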
